A study of Mus musculus with 4 samples.

Results

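Blood clotting and clot removal were followed here through 31 genes that encode the factors of both processes, among 27962 gene names carried by the arrays. The members were taken as the probes, other than controls, whose gene name in the scanner files is one of the 31 symbols, which gave 49 probes. A gene with several probes, as 12 of the 31 had, was read from the probe that was brightest over all 4 arrays. Of the members, 30 were measured in liver, all but Plau, and 31 in spleen. A gene counted as measured in a tissue when both of its arrays had a channel with the probe well above background. No member had a saturated spot.

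The mice were C57BL/6J males, 13 weeks old, on 1 of 2 diets for 4 weeks. The purified control diet was low in nucleoprotein (low NP, with nucleic acids at 0.03%), and the other was this diet with nucleoprotein added at 1.2% (NP, with nucleic acids at 0.5%). Liver and spleen RNA was pooled per diet and tissue, and the number of mice in a pool is not given in the labels. Each tissue lay on 2 two-colour arrays, with the NP pool in the red dye Cy5 on array 1 and in the green dye Cy3 on array 2, read here as a swap of dyes between the same pools. There was thus 1 replicate per diet and tissue, and the diets could be compared only by size, without a test. Because the sample numbers 1 and 2 in the labels follow the dyes, it is not settled whether the arrays of a tissue carried separate pools.

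Values are log2 ratios, NP pool over low-NP pool, as the mean of both arrays, and ± gives how far the arrays lie from that mean, which covers technical error. The series' value table runs the opposite way, with low NP on top. Genes that differed at least 1.5-fold, or 0.58 on the log2 scale, in the same direction on both arrays were called. Levels are normalized log2 signals per pool, and are compared for the same probe only, since probes differ in brightness.

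Clotting runs as a cascade of plasma proteases that ends when thrombin cuts fibrinogen into fibrin. Most of the plasma factors are secreted by hepatocytes, and several carry glutamates that must be carboxylated with vitamin K before they bind calcium. Endothelium, platelets and macrophages supply further parts, among them tissue factor, von Willebrand factor, thrombomodulin and the receptor for urokinase. From this textbook knowledge, 19 members were listed as made mainly by hepatocytes, 10 as made mainly by other cells, and 2, the vitamin K cycle enzymes, as made by many cells.

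Before the diets are compared, the pools were set against markers of the tissues. The 13 hepatocyte markers on the array (Alb, Apoa1, Fabp1 and others) had a summed log2 level of 20.40 to 21.04 in NP liver, of 20.37 to 21.08 in low-NP liver and of 14.27 to 16.03 in NP spleen, but of 20.58 to 21.06 in the pool labelled low-NP spleen. The level of these markers in low-NP spleen was a median 40.7% of that in NP liver (range 16.8 to 220%), against 0.738% in NP spleen. In the same way the B cell markers stood at a median 19.6% of their NP spleen level in low-NP liver and at 3.75% in NP liver, and T cell markers at 22.4% and 4.80%. Every hepatocyte marker was well above background in all pools on both arrays, except Cps1 in NP spleen on array 2, and some spots of Alb and Ambp were saturated. With 1 pool per diet and tissue, no diet ratio can be given without the pool labelled low-NP spleen or the pool labelled low-NP liver. Every diet difference below therefore rests on these pools. Levels of NP liver against NP spleen do not, apart from the scaling between arrays. Spleen array 1 also stood apart, with 93.3% of green and 94.8% of red spots well above background against 59.3 to 68.0% elsewhere, and a median signal of its negative controls of 156 in green and 307 in red against 62.7 to 74.0. For this reason the value of each array is given. In bulk RNA, fewer cells of a type and less RNA per cell cannot be told apart. Nor can RNA or tissue of another organ in a pool be told apart from expression by the labelled organ, and its part in the ratios below was not tested.

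In spleen, the clotting factors of the liver were lower in the NP pool. Of the 31 members, 20 were called lower and 0 higher, where 6.33% of the 18567 measured genes were called lower and 0.0431% higher. The 20 held 18 of the 19 hepatocyte-made members and both vitamin K cycle enzymes, and none of the 10 members made by other cells. The median ratio of the hepatocyte-made members was -4.46 (-3.90 on array 1 and -5.17 on array 2) and that of the members of other cells was 0.12 (0.10 and 0.07), beside -0.02 for all measured genes. With arrays centred on the median, the latter members stood at -0.07 and all genes at -0.15. At 2-fold on both arrays, 17 members were called lower, where 4.17% of all measured genes were. The 13 hepatocyte markers moved with them, with 13 of 13 called lower and a median of -6.08, and so did 9 of 9 markers of the exocrine pancreas (median -2.12), with a summed log2 level of 17.60 to 18.45 in NP spleen and 20.21 to 20.35 in low-NP spleen. The part of these cells in the result was not tested.

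In liver, no such group appeared. Of the 30 measured members, 0 were called higher and 1 lower, where 0.0702% of the 17099 measured genes were called higher and 3.63% lower. The gene called lower was Plaur, the urokinase receptor. The median of the hepatocyte-made members was 0.13 (0.19 on array 1 and 0.11 on array 2), all 19 means lay within 1.5-fold of no change, and 12 of the 19 had opposite signs on the arrays. The median of all measured genes was 0.00. With arrays centred on the median, the hepatocyte-made members stood at 0.43 and all genes at 0.06. Array 2 alone would have given 6 members lower and 1 higher, where it put 11.3% of all genes lower and 0.444% higher. Array 1 alone gave 1 lower and 3 higher, where it put 4.11% of all genes lower and 2.02% higher.

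**Figure D1:**
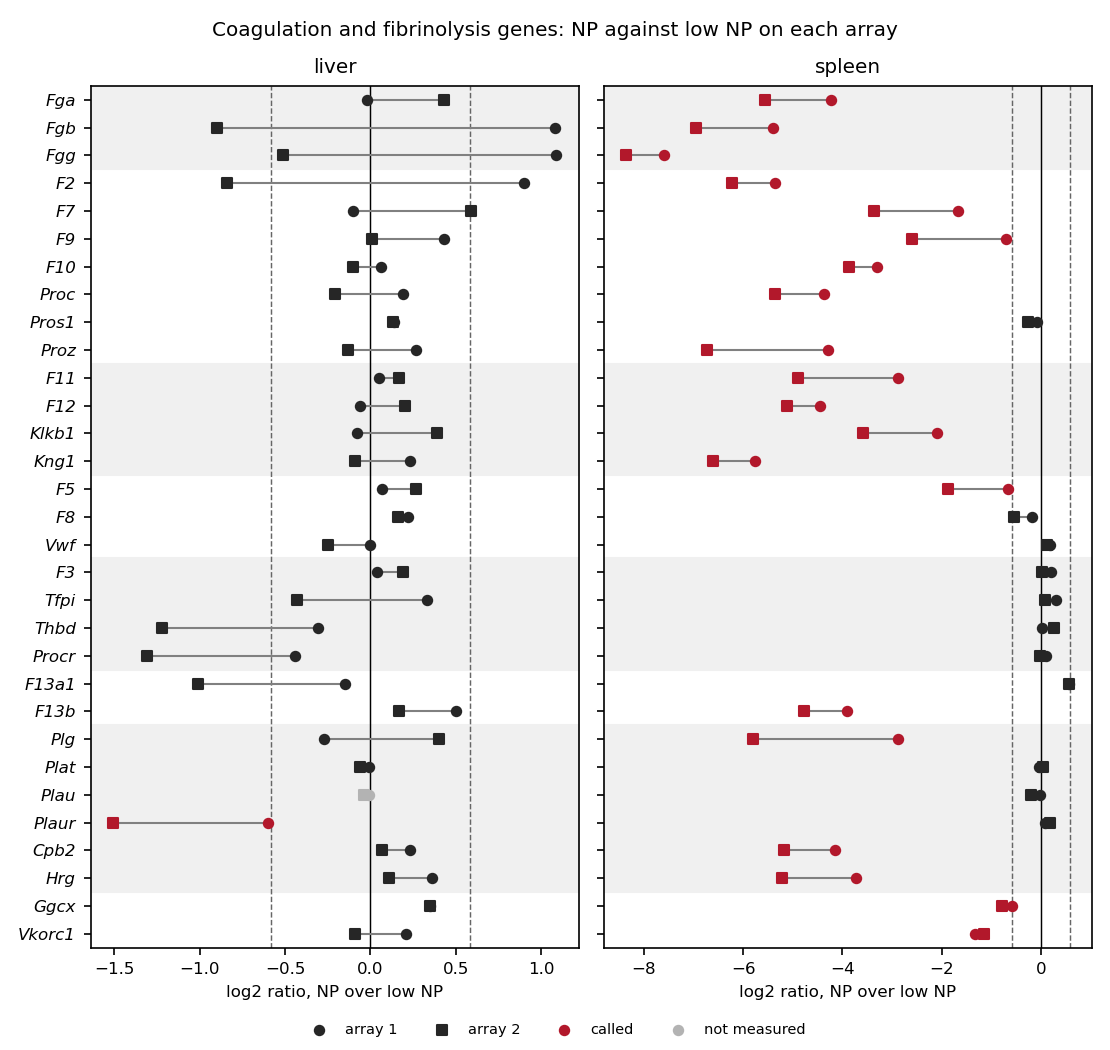
Log2 ratio of NP over low NP (x axis) of each of the 31 genes (y axis, grouped by role) in liver and spleen, with a circle for array 1, a square for array 2, red for genes called and grey for the gene not measured; dashed lines mark 1.5-fold. In spleen 20 genes lie left of the line on both arrays, and in liver 1 gene, Plaur, does.

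The fibrinogen chains come first, since fibrin is the substance of the clot. Fga, Fgb and Fgg encode the alpha, beta and gamma chains, lie side by side on chromosome 3, and are known in mouse and human as genes of hepatocytes that rise in the acute phase. Their probes lie at chr3:83119588-83119647 for Fgg, chr3:83136441-83136500 for Fga and chr3:83147097-83147156 for Fgb in mm7, the build of the scanner files. Fgg had a normalized log2 level of 17.90 and 17.24 on arrays 1 and 2 in NP liver, 16.81 and 17.75 in low-NP liver, 17.21 and 16.92 in low-NP spleen, and 9.60 and 8.56 in NP spleen. Low-NP spleen was thus within the range of the liver pools, and NP spleen was far below the other pools on both arrays. Its ratio in spleen was -7.98 ± 0.38, or 253-fold lower in the NP pool, and it was the lowest ratio of all 31 members. Fgb stood at 18.08 and 17.20 in NP liver, 17.00 and 18.11 in low-NP liver, 17.85 and 17.33 in low-NP spleen, and 12.46 and 10.38 in NP spleen. Its ratio was -6.17 ± 0.78, with no overlap between the diets in spleen. For Fga, the level was 15.20 and 15.38 in NP liver, 15.21 and 14.95 in low-NP liver, 12.71 and 12.92 in low-NP spleen, and 8.48 and 7.36 in NP spleen. Its ratio was -4.89 ± 0.66, and its low-NP spleen level lay between those of NP spleen and both livers, unlike Fgb and Fgg.

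In liver the ratios of Fgb and Fgg followed the dye. Fgb was 1.08 on array 1 and -0.90 on array 2, and Fgg 1.09 and -0.51. The pool in Cy5 was higher on each array for both. Fga, at -0.02 and 0.43, did not follow Cy5. Fgb and F2 were among 41 liver genes that passed 1.5-fold in opposite directions on the arrays, and their liver means were 0.09 ± 0.99 and 0.03 ± 0.87. Fibrinogen therefore showed no diet difference in liver beyond the distance between arrays, while 5 of 16 acute-phase markers were called higher there, with Saa1 at 2.67 ± 0.22 and Saa2 at 2.65 ± 0.38. Both are serum amyloid A genes of the hepatocyte.

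Lower spleen ratios were not particular to the chains, since 18 of 19 hepatocyte-made members were called lower. The promoters of the chains are shown as a description of their sequence. Each run holds the 250 bases before the start of the gene from RefSeq on GRCm38.p6, at chr3:83025903-83026152 on the plus strand for Fga, chr3:83049864-83050113 on the minus strand for Fgb and chr3:83007474-83007723 on the plus strand for Fgg. Capitals mark every match, on either strand, to GTTAAT (a half-site of the hepatocyte factor HNF1), TTGCNNAA (the C/EBP motif), CTGGGAA (a core of interleukin-6 response elements) and CAAAGTCCA (a site of HNF4). No matches overlapped.

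Fga: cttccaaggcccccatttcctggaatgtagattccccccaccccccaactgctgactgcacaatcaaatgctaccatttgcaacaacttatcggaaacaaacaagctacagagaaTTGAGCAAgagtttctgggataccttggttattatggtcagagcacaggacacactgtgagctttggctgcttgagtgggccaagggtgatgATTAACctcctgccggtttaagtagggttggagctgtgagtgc
Fgb: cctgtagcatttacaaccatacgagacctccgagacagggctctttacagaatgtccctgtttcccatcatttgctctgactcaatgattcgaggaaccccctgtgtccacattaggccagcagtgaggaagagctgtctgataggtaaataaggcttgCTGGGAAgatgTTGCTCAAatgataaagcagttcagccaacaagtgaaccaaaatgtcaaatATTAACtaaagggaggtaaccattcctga
Fgg: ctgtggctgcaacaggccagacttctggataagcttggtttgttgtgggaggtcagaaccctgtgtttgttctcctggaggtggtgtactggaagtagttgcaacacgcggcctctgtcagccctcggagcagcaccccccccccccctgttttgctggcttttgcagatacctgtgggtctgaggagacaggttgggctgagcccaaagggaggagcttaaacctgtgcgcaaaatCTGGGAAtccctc

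The Fga run held GTTAAT 43 to 38 bases and TTGCNNAA 135 to 128 bases before the start. In Fgb, GTTAAT lay 29 to 24 bases, TTGCNNAA 80 to 73 bases and CTGGGAA 91 to 85 bases before the start. Fgg held CTGGGAA alone, 13 to 7 bases before the start. Over the same 250 bases of the table's 32851 promoters, GTTAAT was present in 6.43%, TTGCNNAA in 9.56%, CTGGGAA in 9.10% and CAAAGTCCA in 0.384%. Of the members, 24 had an entry, with 26 promoters. GTTAAT was found in 4 of these (Fga, Fgb, F13b and Proz), TTGCNNAA in 9, CTGGGAA in 4 and CAAAGTCCA in 0. A match is a description of letters and not a bound site.

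The vitamin K-dependent proteins were the next group, and 6 of 7 were called lower in spleen. F2 encodes prothrombin, the precursor of thrombin. Its level was 17.59 and 16.80 in NP liver, 16.69 and 17.64 in low-NP liver, 16.58 and 16.30 in low-NP spleen, and 11.22 and 10.07 in NP spleen. The NP spleen pool was below the other pools on both arrays, and the spleen ratio was -5.79 ± 0.44. F10, the protease that cuts prothrombin, was at 10.78 and 10.27 in NP spleen and at 14.09 and 14.13 in low-NP spleen, a ratio of -3.59 ± 0.28. F7 and F9, which activate factor X, had ratios nearer to the threshold. Their NP spleen levels on array 2 were near the level of Plau in NP liver (7.65), where Plau was not measured. The same held for Fga, F11, Proz, Plg and Hrg, and Klkb1 and F13b were not well above background there. Plau is read from another probe, so its level is only a rough guide to the floor. Signal near the floor limits the size of a ratio, so sizes are not read as differences between genes. Levels of F7 were 8.64 and 7.36 in NP spleen against 10.32 and 10.73 in low-NP spleen (-2.52 ± 0.85), and F9 was 9.25 and 7.66 against 9.96 and 10.26 (-1.65 ± 0.95). The F9 ratio was -0.71 on array 1 and -2.60 on array 2, the former just past the threshold, and its call was lost when its probes were averaged (-1.41).

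Proc, which encodes the anticoagulant protease protein C, was -4.86 ± 0.49 in spleen, with levels of 10.33 and 9.49 in NP spleen and 14.70 and 14.84 in low-NP spleen. Proz encodes protein Z, a cofactor for the inhibition of factor Xa, and was -5.50 ± 1.22 on its brightest probe. The other Proz probes gave -2.11 and -1.29, so all 3 probes were lower but by unlike amounts, and their mean was -2.97. Pros1 was the exception. It encodes protein S, the cofactor of protein C, which endothelium and other cells are also known to make. Its level was 11.39 and 11.14 in NP spleen and 11.46 and 11.40 in low-NP spleen, a ratio of -0.16 ± 0.10 that was not called, and a second probe gave -0.29. In NP spleen it stood at 49.6% of its NP liver level, where the other hepatocyte-made members ranged from 0.278 to 8.50%. In liver, the 7 genes ranged from -0.02 (F10) to 0.24 (F7), with 0 called.

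All 4 genes of the contact pathway, which starts clotting on charged surfaces and releases bradykinin, were lower in NP spleen. Kng1 encodes kininogen and had levels of 9.17 and 8.22 in NP spleen, 14.94 and 14.81 in low-NP spleen, 16.76 and 16.58 in NP liver, and 16.53 and 16.67 in low-NP liver. Its spleen ratio was -6.18 ± 0.41, and its second probe gave -4.88. Kng2 is a close copy of this gene and was called lower as well (-2.43 ± 0.63), so signal shared between the copies was not separated. F12, the protease that opens the pathway, was -4.78 ± 0.33, with 8.80 and 8.18 in NP spleen against 13.25 and 13.29 in low-NP spleen. F11, its substrate, was -3.88 ± 1.01, and Klkb1, plasma prekallikrein, was -2.85 ± 0.75. The Klkb1 probe was not well above background in NP spleen on array 2, and its ratio was -4.43 with the scanner software's processed signals. In liver the group ranged from 0.07 to 0.16 with 0 called.

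Among the large cofactors, the hepatocyte gene F5 was called lower in spleen, and the vessel genes F8 and Vwf were not called. F5, the cofactor of factor Xa, was at 9.11 and 8.02 in NP spleen and 9.78 and 9.88 in low-NP spleen, and its ratio of -1.27 ± 0.60 was called. F8, the cofactor of factor IX that endothelium of the liver sinusoids is known to make, was at 8.40 and 8.30 against 8.58 and 8.85, a ratio of -0.37 ± 0.18 that was not called. Vwf, which carries factor VIII and tethers platelets, was at 11.67 and 11.55 in NP spleen and 11.50 and 11.42 in low-NP spleen (0.15 ± 0.02). In liver F5 was 0.17 ± 0.10, F8 0.19 ± 0.03 and Vwf -0.12 ± 0.13.

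The genes of initiation and of endothelial control showed no call in either tissue. F3 encodes tissue factor, the trigger of clotting, and its levels lay between 9.07 and 9.71 in all pools, with 0.12 ± 0.08 in liver and 0.11 ± 0.09 in spleen. Tfpi encodes the inhibitor of tissue factor and was -0.05 ± 0.38 in liver and 0.19 ± 0.10 in spleen. Thbd (thrombomodulin, which turns thrombin towards protein C) and Procr (the endothelial receptor of protein C) were lower in NP liver on both arrays without reaching the threshold on array 1. Thbd was at 9.88 and 9.70 in NP liver and at 10.19 and 10.91 in low-NP liver, with ratios of -0.31 and -1.22. Procr was at 9.53 and 9.21 against 9.97 and 10.52, with -0.44 and -1.31. The NP levels of both genes were below the low-NP levels without overlap, but the arrays differed about as much as the diets. In spleen both stayed near 0, with 0.15 ± 0.12 for Thbd and 0.05 ± 0.06 for Procr. Endothelial markers had a median of -0.18 there with 1 of 10 called lower, Lyve1 (-0.76 ± 0.14), and B and T cell markers had 0 of 8 called each.

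Factor XIII cross-links fibrin, and its subunits behaved differently. F13b, the carrier subunit made by hepatocytes, was at 6.79 and 6.83 in NP spleen, 10.69 and 11.61 in low-NP spleen, 13.64 and 13.66 in NP liver, and 13.14 and 13.49 in low-NP liver. Its spleen ratio was -4.34 ± 0.44, with the NP probe not well above background on array 2, and it was -6.21 with the scanner software's processed signals. F13a1, the catalytic subunit known from macrophages and megakaryocytes, was at 10.77 and 10.98 in NP spleen and 10.20 and 10.42 in low-NP spleen. Its probe lies at chr13:36288206-36288265 in mm7. The ratio was 0.57 on array 1 and 0.56 on array 2, the highest of the members in spleen and just under the threshold of 0.58. In liver it was -0.15 and -1.01. Megakaryocyte and platelet markers had a median of 0.22 in spleen with 0 of 10 called, and of -0.61 in liver with 4 of 10 called lower.

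In fibrinolysis, the removal of clots, the 3 genes called lower in spleen were hepatocyte-made. Of the others, Plat and Plau gave little signal, so a split by source is not read from them. Plg encodes plasminogen, the precursor of the protease that cuts fibrin. Its level was 10.79 and 7.50 in NP spleen, 13.67 and 13.31 in low-NP spleen, 15.42 and 15.66 in NP liver, and 15.68 and 15.26 in low-NP liver. The spleen ratio was -4.35 ± 1.46, with the widest distance between arrays among the members, and a second probe gave -4.34. Cpb2, the carboxypeptidase that slows fibrinolysis, was -4.66 ± 0.51, with 9.30 and 8.35 in NP spleen against 13.45 and 13.52 in low-NP spleen. Its second probe was not measured in either tissue. Hrg, a plasma glycoprotein that binds plasminogen and heparin, was -4.46 ± 0.75.

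The activators of plasminogen gave little signal. Plat, tissue plasminogen activator, lay between 8.38 and 8.88 in all pools, with -0.03 ± 0.02 in liver and 0.01 ± 0.04 in spleen. Plau, urokinase, was not measured in liver and was -0.10 ± 0.09 in spleen. Plaur, the urokinase receptor of macrophages and neutrophils, was the single member called in liver, on a probe at chr7:21263487-21263546 in mm7. Its level was 8.88 and 8.47 in NP liver, 9.48 and 9.97 in low-NP liver, 11.56 and 11.78 in NP spleen, and 11.47 and 11.60 in low-NP spleen. The liver pools did not overlap, and the ratio was -0.60 on array 1, just past the threshold, and -1.51 on array 2. A second probe gave -0.28 and -1.03, and the call was lost when the probes were averaged (-0.86) or when arrays were centred on the median (-1.06). It was kept without background correction (-1.60) and with the processed signals or the value table (-1.93 with each).

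Markers of spleen cells and of the exocrine pancreas moved in the same direction as Plaur, Procr and Thbd in liver. B cell markers were called lower in NP liver for 7 of 8 genes (median -2.33), T cell markers for 6 of 8 (-2.19) and macrophage markers for 4 of 9 (-0.48), while endothelial markers were called for 0 of 10 (0.15). The summed log2 level of B cell markers was 12.26 to 12.79 in NP liver and 15.82 to 16.13 in low-NP liver, that of T cell markers 11.25 to 11.95 and 13.59 to 14.18, and that of macrophage markers 15.92 to 15.98 and 16.39 to 16.42. Exocrine pancreas markers were called lower for 9 of 9 genes (median -1.05), with a summed log2 level of 17.17 to 17.37 in NP liver and 18.33 to 18.42 in low-NP liver. One B cell marker was not well above background in NP liver. In low-NP liver, Plaur, Procr and Thbd, which were grouped after their values were seen, stood at 25.0 to 33.3% of their NP spleen levels, and in NP liver at 12.5 to 18.1%. The part of spleen or pancreas cells in these ratios was not tested.

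The vitamin K cycle enzymes serve every vitamin K-dependent protein. Ggcx is the carboxylase and Vkorc1 the reductase that the drug warfarin blocks. Vkorc1 was at 13.44 and 13.67 in NP spleen, 14.77 and 14.81 in low-NP spleen, 15.87 and 15.87 in NP liver, and 15.66 and 15.96 in low-NP liver. It was lower in NP spleen without overlap (-1.23 ± 0.10), and -1.33 and -1.14 on the arrays. Ggcx was at 7.72 and 8.25 in NP spleen and 8.30 and 9.03 in low-NP spleen. Its ratio of -0.68 ± 0.10 was past the threshold by little on array 1 (-0.59), and its call was lost without background correction (-0.65) or with median centring (-0.73). In liver Ggcx was 0.35 ± 0.00, the highest mean among the members and under the threshold.

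**Figure D2:**
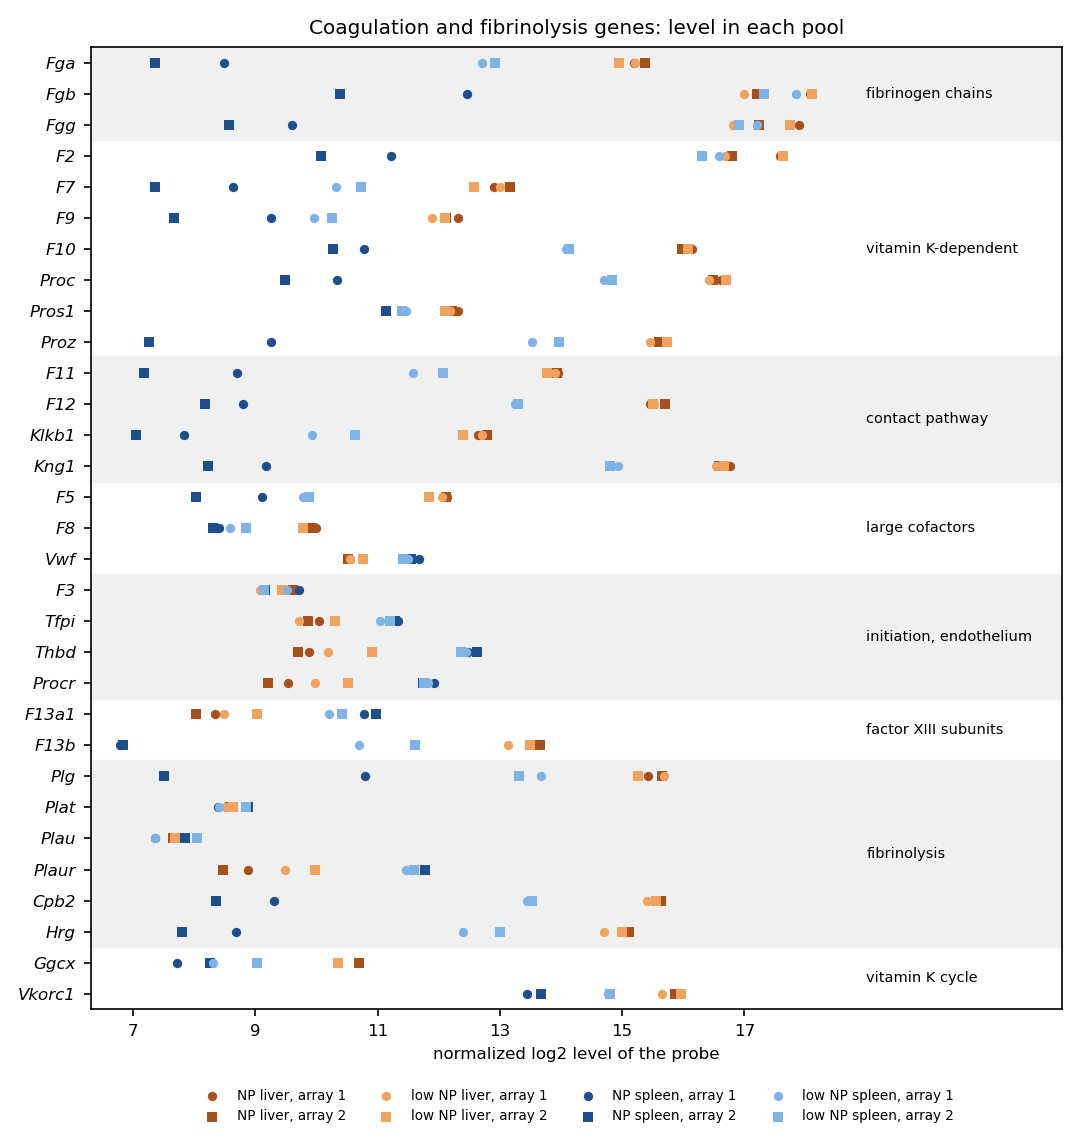
Normalized log2 level (x axis) of each of the 31 genes (y axis, grouped by role) in each pool, with brown for liver, blue for spleen, the darker shade for NP, circles for array 1 and squares for array 2. For the hepatocyte-made genes other than Pros1 the dark blue NP spleen points lie left of the other pools, as for Fgg at 9.60 and 8.56.

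The tissues differed strongly in the NP pools and less in the low-NP pools. Among the 19 hepatocyte-made members the liver level exceeded the spleen level by a median of 6.55 on the log2 scale in NP pools (range 1.01 to 8.49), and all 19 were at least 2-fold higher in liver. In low-NP pools the median was 1.98 (range -0.04 to 2.28), and 15 of 19 were at least 2-fold higher in liver. For the 10 members of other cells the median was -1.22 in NP pools, with 6 at least 2-fold higher in spleen and 1, F8, in liver. In low-NP pools it was -0.96. The levels on which these rest were scaled between arrays, and spleen and liver lay on separate arrays. The share of all genes past 2-fold between the tissues was not counted, so the counts have no background to be read against.

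The low-NP spleen level of hepatocyte-made members was a median 23.3% of the NP liver level (21.8% on arrays 1 and 27.3% on arrays 2), and their NP spleen level 1.07%. Fgb, Fgg, F2 and Pros1 stood above the rest, at 96.5, 70.5, 59.4 and 55.5%, and were set apart after their values were seen. The other 15 lay between 17.6 and 29.0%, with a median of 22.6%. For Pros1 the NP spleen level was nearly as high (49.6%), and for Fgb, Fgg and F2 it was 1.34, 0.278 and 1.07%. The ratios of the 15 genes in spleen ran from -1.27 (F5) to -6.18 (Kng1). Fgb, Fgg and F2 were also the 3 brightest hepatocyte-made members in NP liver. High shares were not particular to clotting genes, since those of the 13 hepatocyte markers ran from 16.8 to 220%, with a median of 40.7%. The part of probe brightness in the shares was not tested.

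**Figure D3:**
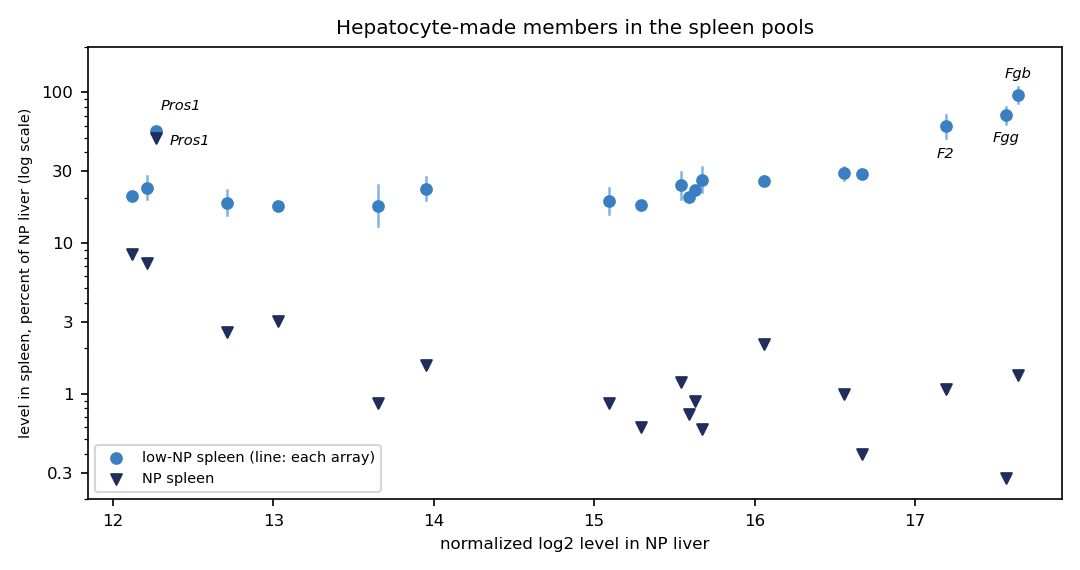
Level in low-NP spleen (circles, with a line joining the arrays) and in NP spleen (triangles) as a percent of the NP liver level (y axis, log scale) for the 19 hepatocyte-made genes, set out along the x axis by the normalized log2 level of their probe in NP liver. Circles lie between 17.6 and 29.0% for 15 genes, with Pros1, F2, Fgg and Fgb at 55.5, 59.4, 70.5 and 96.5%, and triangles have a median of 1.07%.

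The share of called genes with a higher level in NP liver than in low-NP spleen was compared with that of all genes. This comparison crosses both diet and tissue, so it is not a measure of liver enrichment. Of the 20 members called lower in NP spleen, 17 (85.0%) were at least 2-fold higher in NP liver than in low-NP spleen, against 1046 of the 1175 genes called in all (89.0%). Of the 11 members not called it was 1 (9.09%), against 7.59% of all genes not called. The members' shares were thus near those of all genes. All 20 were at least 2-fold higher in NP liver than in NP spleen, but this share was not counted over all called genes. The NP spleen level also enters the call, so the count is not read as a trait of the members.

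In spleen, the arrays had the same sign but not the same size for the hepatocyte-made members. All 19 hepatocyte-made members had a lower spleen ratio on array 2 than on array 1. For 18 of 19 the NP spleen level was higher on array 1, the array with the higher negative controls. The share of all genes with either pattern was not counted. Plg showed the widest gap, at -2.88 and -5.81, with an NP spleen level near the floor on array 2 (7.50). The part of the negative-control signal in these gaps was not tested. Array 2 alone gave a median of -5.17 for these members and array 1 alone -3.90. The gap was not particular to the members. Hepatocyte markers had a spleen median of -5.57 on array 1 and -6.59 on array 2. Of all genes, array 1 alone put 6.72% lower and array 2 alone 9.05%.

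Inhibitors and partners of clotting that are not members were read as further lists. Of 9 inhibitors measured in spleen, 6 were called lower and 0 higher, with a median of -1.81. They were Serpinc1, which encodes antithrombin (-6.73 ± 0.84), Serpinf2, the antiplasmin gene (-4.81 ± 0.73), Serpind1, heparin cofactor II (-4.75 ± 0.22), Serpina10, the protein Z-dependent inhibitor (-1.82 ± 0.58), Tfpi2 (-1.81 ± 0.58) and Serping1, the C1 inhibitor (-0.81 ± 0.05). Of 18 measured partners, 5 were called lower in spleen, with a median of -0.09 over all 18. These were C4bp (-6.52 ± 1.11), Hgfac (-3.27 ± 1.04), the fibrinogen-like Fgl1 (-3.24 ± 0.71), Kng2 and Lman1 (-0.97 ± 0.15). Lman1 is the receptor that carries factors V and VIII out of the endoplasmic reticulum. The thrombin receptor F2r was -0.05 ± 0.16.

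In liver, 0 of 8 inhibitors and 0 of 16 partners were called. Fgl1 came nearest from above, at 0.53 and 0.99 on the arrays. Fgl2, a prothrombinase of macrophages and T cells, was -0.19 and -1.06, and Anxa2, a plasminogen receptor, -0.60 and -0.53. Serpinc1 followed the dye as Fgb and Fgg did, at 1.05 and -0.84.

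**Figure D4:**
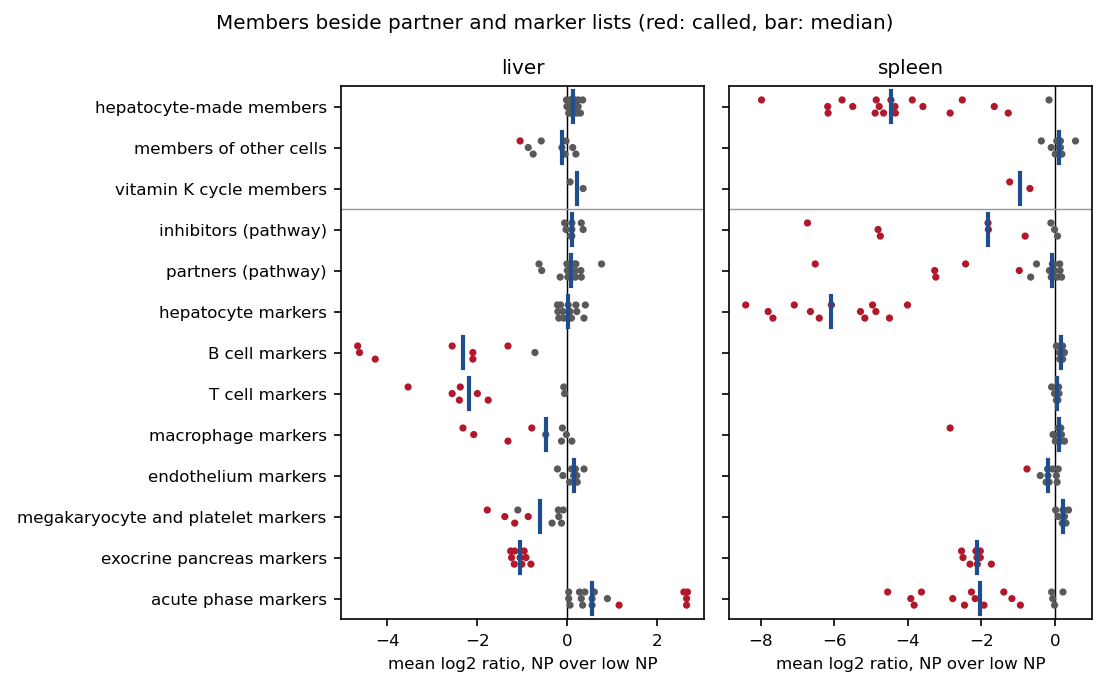
Mean log2 ratio of NP over low NP (x axis) of each measured gene of the members by source, of 2 lists of partner genes and of 8 marker lists (y axis) in liver and spleen; each point is a gene, red where called, and the bar is the list's median. In spleen the hepatocyte-made members (median -4.46) lie to the left with the hepatocyte markers (-6.08) and the exocrine pancreas markers (-2.12), and in liver B cell (-2.33), T cell (-2.19) and exocrine pancreas (-1.05) markers lie to the left.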

How the data were processed

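Liver and spleen RNA, pooled per diet, was hybridised on 4 two-colour Agilent whole mouse genome arrays on 1 slide. The deposited scanner files give the mean foreground and median background intensity of each spot in both dyes, and a log10 ratio of red over green, per the file headers. Flags mark saturated, outlying and dim spots. The software was Agilent Feature Extraction 9.5.3.1, per the submitters' processing notes. How the authors made the log10 ratios of the deposited value table is not stated in the labels. Against the scanner ratio its columns had correlations of -0.992, 0.991, -0.993 and 0.998, so all hold low NP over NP, and their medians were 0.02, -0.07, -0.01 and -0.04, so they are not centred.

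In limma 3.58.1 (R 4.3.3), normexp with an offset of 50 corrected the background and loess normalized the log ratios of each array. Control spots and outlier-flagged spots (109 to 180 per array) had no weight. Signs were set so that NP is the numerator, and spots of a probe were averaged. Levels per dye were also scaled between arrays by Aquantile. Arrays give no read depth, and the number of arrays limits the precision. Members were matched by the gene name in the files, and the other lists also through RefSeq names of GRCm38.p6 (22951 probes by accession, 6659 by symbol, 3109 by synonym, 8455 by the file's name). The list genes Serpina1a and Try4 were not matched to a probe. Every member may be named, and other genes only from the lists. The calling rule was tested on simulated data with known folds. The members, lists and tests were chosen with earlier results of these data known. Alternatives changed background, normalization, filter, probe and naming rules and the fold, left out each array, and used the value table. Python 3.11.15 with pandas 2.3.3 and numpy 2.4.6 was used for tables, and matplotlib 3.10.9 for figures.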

Additional observations from a re-analysis of the deposited data

Results flagged for a closer look

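For 12 members both arrays of liver moved one way and both arrays of spleen the other. The share of all genes with this pattern was not counted, so the number is not read as a trait of the members. These differences were not tested, since each tissue has 1 pool per diet, and the signs of small ratios can turn with the scaling. The values are the log2 ratio of NP over low NP in liver minus that in spleen. Liver was above 0 and spleen below for 9 genes. The difference was 4.81 for Cpb2, 4.70 for Hrg, 4.68 for F13b, 3.99 for F11, 1.87 for F9, 1.44 for F5, 1.03 for Ggcx, 0.56 for F8 and 0.30 for Pros1. Liver was below 0 and spleen above for 3 genes made by cells other than hepatocytes. It was -1.19 for Plaur, -1.14 for F13a1 and -0.91 for Thbd.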

How the results depend on the processing

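No paired analysis was possible because the liver and spleen arrays share the numbers 1 and 2 only as dye orientations and no result comes from a test. The count of members called lower in NP spleen (20) stayed between 17 and 20 under every alternative run, and no member that was called turned its direction. Members called lower in liver (1) were 4 without background correction (Plaur, F13a1, Procr and Thbd), 3 with the software's processed signals and 3 with the value table (both with F13a1 and Procr), and 0 with the mean of a gene's probes, with median centring or at 2-fold. From a single array there were 1 to 6, and 1 to 3 called higher. The liver median of all members (0.08) was 0.38 with median centring and -0.02 to 0.11 from single arrays, that of hepatocyte-made members (0.13) was 0.43 with median centring, and that of members of other cells (-0.12) ran from -0.43 to -0.01 over single arrays. The median of all genes (0.00 in liver, -0.02 in spleen) was 0.06 and -0.15 with median centring and 0.11 and 0.10 with processed signals. In spleen, F13a1 was called higher with processed signals (0.74) and with the value table (0.75), which makes 1 member with each. The spleen median of members of other cells (0.12) was 0.28 with processed signals, 0.27 with the value table, 0.08 with the mean of probes, -0.07 with median centring, which turns its sign, and 0.07 to 0.10 from single arrays. The liver over spleen median of hepatocyte-made members in NP pools (6.55) was 7.05 with processed signals. That of members of other cells (-1.22) was -1.28 without background correction, -1.41 with processed signals, -0.59 with the mean of probes and -1.26 with quantile normalization. In low-NP pools the medians (1.98 and -0.96) were 2.19 with processed signals and 1.86 to 1.99 from single arrays for the former, and -0.29 with the mean of probes for the latter. The low-NP spleen share (23.3%), whose alternatives were chosen after seeing the data, ran from 21.8 to 27.3% over single arrays. Of all genes, 621 were called lower in liver, against 1332 without background correction, 1749 with processed signals, 1763 with the value table and 324 with median centring, and 12 were called higher, against 309 with processed signals and 312 with the value table. In spleen 8 were called higher, against 44 with processed signals, 48 with the value table and 3 with median centring. The cause was not tested.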
